A study of Mus musculus with 12 samples.

Results

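Receptors, ligands and targets of the Notch pathway, 10 of the 19937 genes with a probe set of their own, were followed across 2 stromal cell types of mouse long bone: the receptors Notch1, Notch2, Notch3 and Notch4, the ligands Dll4, Jag1 and Jag2, and the target genes Hes1, Hey1 and Hey2. A gene was taken when a probe set carried its symbol and no other, and each of the 10 genes had 1 such probe set. The arrays came from endothelial cells and osteoblasts of female NOD SCID mice, which lack functional B and T lymphocytes. There were 4 groups of 3 arrays: endothelial cells from tumor-bearing mice, endothelial cells of tumor-free mice, osteoblasts of tumor-bearing mice and osteoblasts of tumor-free mice. Tumor-bearing mice had received 200000 MDA-MB231 scp1833 cells, a bone-seeking subline of a human breast cancer line, into the heart, and tumors had grown in the bones for about 2 weeks. Cells of these mice are called tumor-bearing and those of mice without tumor cells tumor-free for short. Endothelial cells were sorted as CD31+ and SCA1+, osteoblasts as CD51+ without CD31 or SCA1, and both without CD45, TR119 and GFP. The labels call the arrays biological replicates without saying how many mice each holds, so the p-values measure the spread between these arrays.

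Notch receptors are single-pass membrane proteins that are activated by ligands of the Delta and Jagged families on a neighboring cell. Ligand pulling exposes the receptor to an ADAM protease and then to gamma-secretase, and the released intracellular domain enters the nucleus, binds Rbpj and turns on genes of the Hes and Hey families of transcriptional repressors. In vessels, Dll4 and Notch1 restrain sprouting and take part in arterial identity. In bone, Notch signals act on the differentiation of osteoblast precursors, and Jag1 on tumor cells and on stromal cells has been studied in breast cancer metastasis to bone.

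Proximal promoters are shown for a receptor higher in endothelial cells (Notch4), for the ligand that differed between tumor-bearing and tumor-free osteoblasts (Jag1) and for a direct Notch target (Hey2). Each holds 250 bases before and 50 bases from the start site, from RefSeq on GRCm38.p6, written 5′ to 3′ along the gene. They lie at chr17:34564045-34564344 on the plus strand, chr2:137116471-137116770 on the minus strand and chr10:30842734-30843033 on the minus strand. Capitals mark matches, on either strand, to TGGGAA (the core bound by RBPJ), AGGAAG (an ETS core), TGANTCA (AP-1), TAAACA (a forkhead core) or CACGTG (an E-box bound by HES and HEY proteins).
Notch4: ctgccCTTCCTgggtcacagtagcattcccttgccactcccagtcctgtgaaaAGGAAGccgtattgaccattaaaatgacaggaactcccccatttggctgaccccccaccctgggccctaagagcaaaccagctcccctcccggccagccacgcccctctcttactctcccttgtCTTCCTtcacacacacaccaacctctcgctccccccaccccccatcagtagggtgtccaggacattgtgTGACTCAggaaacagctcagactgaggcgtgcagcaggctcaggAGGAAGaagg
Jag1: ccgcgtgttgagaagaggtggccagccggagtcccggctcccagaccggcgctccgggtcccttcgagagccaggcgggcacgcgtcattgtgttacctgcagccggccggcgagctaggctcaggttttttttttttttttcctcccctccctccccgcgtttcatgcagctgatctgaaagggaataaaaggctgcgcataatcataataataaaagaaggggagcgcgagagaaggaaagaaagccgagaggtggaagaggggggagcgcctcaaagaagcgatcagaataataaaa
Hey2: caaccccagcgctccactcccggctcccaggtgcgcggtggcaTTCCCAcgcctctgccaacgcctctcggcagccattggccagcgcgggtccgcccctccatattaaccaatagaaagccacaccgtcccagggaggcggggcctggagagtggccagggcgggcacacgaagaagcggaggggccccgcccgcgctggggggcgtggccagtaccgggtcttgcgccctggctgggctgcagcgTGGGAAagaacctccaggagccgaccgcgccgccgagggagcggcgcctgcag

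The Notch4 window held 4 ETS matches and 1 AP-1 match, which started at -4 from the start site. The Hey2 window held RBPJ matches starting at -207 and -3. The Jag1 window held none of the 5 motifs, which says only that these letters are not in this window. Promoters of 8 of the 10 genes could be read, and among them the RBPJ, ETS and AP-1 motifs each occurred in 1 and the forkhead and E-box motifs in 0. Over all 32851 promoters of this length, 25.6% held the RBPJ motif, 35.4% the ETS motif, 7.81% the AP-1 motif, 13.4% the forkhead motif and 7.15% the E-box, and no 2 matches in these windows overlapped.

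Endothelial and osteoblast markers separated the sorted populations as labelled. All 10 endothelial markers, among them Pecam1 and Cdh5, were higher in endothelial cells than in osteoblasts of tumor-bearing and of tumor-free mice, and all 6 osteoblast markers measured, among them Ibsp and Alpl, were lower (limma, adjusted p under 0.05). Pecam1 encodes CD31, by which the cells were sorted, so its difference was set by the sort. The arrays of tumor-free osteoblasts were less alike than those of the other groups. Correlations within a group were 0.867 to 0.908 there, 0.946 to 0.966 in tumor-bearing osteoblasts and 0.953 to 0.969 in endothelial cells. The mean log2 level of 8 hematopoietic markers was 6.68, 6.41 and 5.02 on the arrays of tumor-bearing osteoblasts, 5.39, 8.09 and 7.53 on those of tumor-free osteoblasts, and 5.07 to 5.52 on the 6 endothelial arrays. The mean of 7 chondrocyte markers was 10.01 to 10.72 on the arrays of tumor-bearing osteoblasts and 10.10, 8.66 and 6.42 on those of tumor-free osteoblasts. Chondrocyte markers thus also set the osteoblast arrays apart: all 7 were lower in endothelial cells from tumor-bearing mice, with a median difference of -5.50, against -3.46 for the 6 osteoblast markers. Tumor-free osteoblast replicate 1 had less hematopoietic and more chondrocyte signal than the other tumor-free osteoblast arrays, and at 8.97 it had the lowest mean of the osteoblast markers among the osteoblast arrays. The part of chondrocyte RNA in the differences between cell types was not tested.

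The members differed most between the cell types. In tumor-bearing mice, 4 of the 9 members tested were higher and 1 was lower in endothelial cells than in osteoblasts, against 8.13% and 6.79% of all 12430 genes tested (limma, adjusted p under 0.05). In tumor-free mice, 6 were higher and 1 was lower, against 18.2% and 12.7% of all genes. The median difference over the 9 members was 1.05 on the log2 scale in tumor-bearing mice and 1.35 in tumor-free mice, and over all genes it was 0.00 and 0.03. Between cell types, groups without overlap were found for 19.5% (higher) and 16.3% (lower) of all genes in tumor-bearing mice, and for 23.1% and 24.2% in tumor-free mice. Hey2 did not exceed the median of all probe sets on any of the 12 arrays and was not tested.

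**Figure D1:**
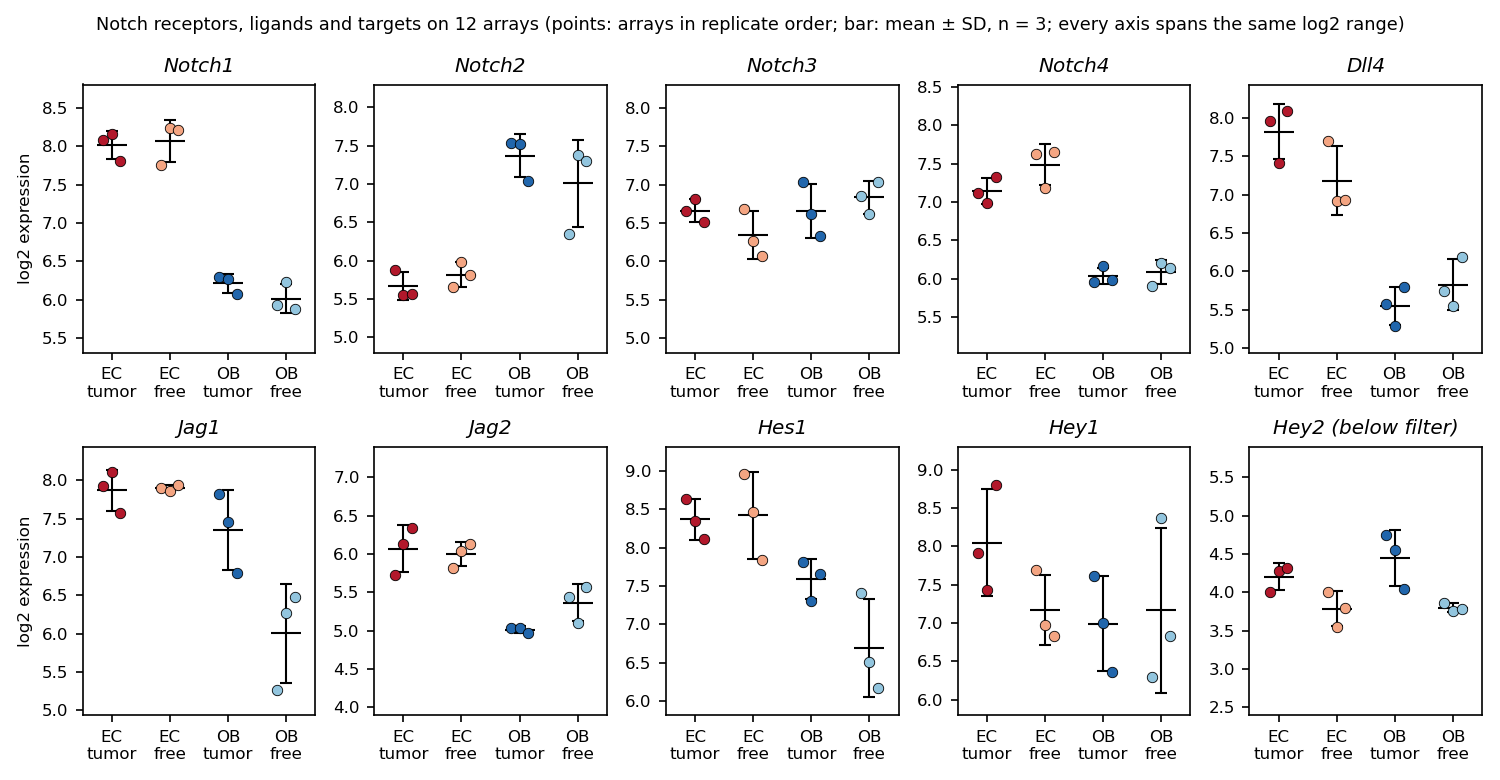
Log2 level of each of the 10 genes on every array (vertical axis) by group (horizontal axis), with bars at the group means. Notch1, Notch4 and Dll4 form an endothelial band above an osteoblast band, Notch2 the reverse, and Jag1 of tumor-free osteoblasts lies below the other 3 groups.

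Notch1, the receptor with the best known role in vessels and blood formation, had the largest endothelial excess among the receptors. Its log2 level was 8.08, 8.16 and 7.81 in endothelial cells from tumor-bearing mice, 7.76, 8.23 and 8.21 in those of tumor-free mice, 6.29, 6.27 and 6.07 in osteoblasts of tumor-bearing mice and 5.93, 6.23 and 5.88 in those of tumor-free mice. All 6 endothelial arrays lay above all 6 osteoblast arrays, while tumor-bearing and tumor-free arrays of either cell type overlapped. Notch1 was 3.49-fold higher in endothelial cells from tumor-bearing mice (1.80 ± 0.18 log2, SE, limma adjusted p = 4.9e-05) and 4.16-fold higher in those of tumor-free mice (2.06 ± 0.18, adjusted p = 1.8e-05).

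Notch4, a receptor known for its restriction to endothelium, was likewise higher in endothelial cells. It read 7.12, 6.99 and 7.33 in endothelial cells from tumor-bearing mice and 7.62, 7.18 and 7.66 in those of tumor-free mice. The osteoblast arrays read 5.96, 6.16 and 5.98 in tumor-bearing mice and 5.91, 6.20 and 6.14 in tumor-free mice. Again no endothelial array fell within the osteoblast range, and the endothelial excess was 2.16-fold in tumor-bearing mice (limma adjusted p = 0.00108) and 2.64-fold in tumor-free mice (adjusted p = 0.000217). Further probe sets, 4 in number, name Notch4 together with Sympk and were not used.

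Notch2 was the one receptor lower in endothelial cells. Its values were 5.87, 5.56 and 5.56 in endothelial cells from tumor-bearing mice, 5.65, 5.98 and 5.81 in those of tumor-free mice, 7.54, 7.53 and 7.04 in osteoblasts of tumor-bearing mice and 6.35, 7.37 and 7.30 in those of tumor-free mice. The lowest osteoblast array, tumor-free replicate 1, was still above every endothelial array. The level was 3.26-fold lower in endothelial cells from tumor-bearing mice (-1.70 ± 0.26, limma adjusted p = 0.00114) and 2.29-fold lower in those of tumor-free mice (-1.20 ± 0.26, adjusted p = 0.00761). With the mean of the hematopoietic markers as a covariate, the difference in tumor-free mice was -0.58 (adjusted p = 0.0417), and it was -1.52 without tumor-free osteoblast replicate 1.

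Notch3, the receptor of vascular smooth muscle and pericytes, did not separate the cell types. It read 6.66, 6.81 and 6.51 in endothelial cells from tumor-bearing mice, 6.68, 6.27 and 6.07 in those of tumor-free mice, 7.03, 6.62 and 6.33 in osteoblasts of tumor-bearing mice and 6.86, 6.61 and 7.04 in those of tumor-free mice. The groups overlapped throughout. The difference was -0.00 in tumor-bearing mice, with a 95% interval of -0.48 to 0.48, and -0.49 in tumor-free mice, with an interval of -0.97 to -0.01 (limma adjusted p = 0.998 and 0.104). Of the 13 alternative settings, quantile normalization alone gave a call in tumor-free mice (-0.71, adjusted p = 0.0375).

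**Figure D2:**
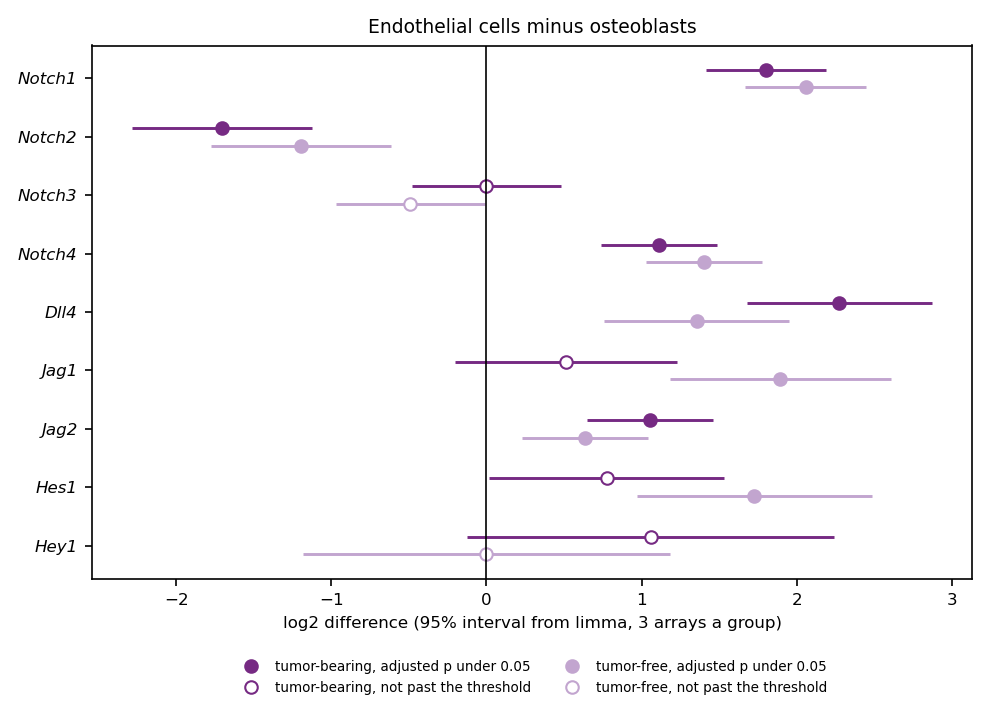
Differences between endothelial cells and osteoblasts (log2, horizontal axis, with 95% intervals) for the 9 members tested, in tumor-bearing and tumor-free mice. Notch1, Notch4, Dll4 and Jag2 lie right of 0 in both and Notch2 left of 0 in both, while Jag1 and Hes1 passed the test in tumor-free mice only.

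Among the ligands, Dll4, a Delta ligand of arterial and sprouting endothelium, was higher in endothelial cells. It read 7.96, 7.42 and 8.09 in endothelial cells from tumor-bearing mice, 7.70, 6.92 and 6.93 in those of tumor-free mice, 5.57, 5.28 and 5.79 in osteoblasts of tumor-bearing mice and 5.74, 5.55 and 6.19 in those of tumor-free mice. Endothelial and osteoblast arrays did not overlap. The excess was 4.84-fold in tumor-bearing mice (2.27 ± 0.27, limma adjusted p = 0.000192) and 2.56-fold in tumor-free mice (1.35 ± 0.27, adjusted p = 0.00475).

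Jag2, a Jagged ligand, had 5.73, 6.14 and 6.34 in endothelial cells from tumor-bearing mice and 5.82, 6.05 and 6.14 in those of tumor-free mice. Osteoblasts had 5.04, 5.04 and 4.96 in tumor-bearing mice and 5.44, 5.10 and 5.57 in tumor-free mice. All endothelial arrays were above all osteoblast arrays, by 2.08-fold in tumor-bearing mice (limma adjusted p = 0.00262) and 1.55-fold in tumor-free mice (adjusted p = 0.0260). The call in tumor-free mice ended without tumor-free osteoblast replicate 2 (adjusted p = 0.0688) or without tumor-free endothelial replicate 2 or 3 (0.0766 and 0.0864). It also ended with array weights per group (0.0750), with the hematopoietic mean as a covariate (0.0894) and with only the groups compared (0.0656).

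Jag1, the Jagged ligand with the widest tissue range, was lowest in osteoblasts of tumor-free mice. It read 7.92, 8.10 and 7.58 in endothelial cells from tumor-bearing mice, 7.90, 7.86 and 7.94 in those of tumor-free mice, 7.82, 7.46 and 6.79 in osteoblasts of tumor-bearing mice and 5.27, 6.27 and 6.47 in those of tumor-free mice. No array of tumor-free osteoblasts reached the lowest array of another group. In tumor-bearing mice the endothelial excess was 0.51 ± 0.32, with a 95% interval of -0.20 to 1.23 (limma adjusted p = 0.381). With the hematopoietic mean as a covariate this excess was 0.90 and passed (adjusted p = 0.00901). In tumor-free mice Jag1 was 3.72-fold higher in endothelial cells (1.89 ± 0.32, adjusted p = 0.00200), and the difference was 1.53 without tumor-free osteoblast replicate 1 and 2.65 with the hematopoietic mean as a covariate.

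Of the target genes, Hes1, a repressor induced by Notch and by other signals, was also lowest in osteoblasts of tumor-free mice. Its levels were 8.64, 8.35 and 8.12 in endothelial cells from tumor-bearing mice, 8.97, 8.46 and 7.84 in those of tumor-free mice, 7.82, 7.31 and 7.66 in osteoblasts of tumor-bearing mice and 7.41, 6.51 and 6.17 in those of tumor-free mice. Every endothelial array was above every osteoblast array. The difference was 0.77 ± 0.34 in tumor-bearing mice, which did not pass (limma adjusted p = 0.183), and 1.73 ± 0.34, or 3.31-fold, in tumor-free mice (adjusted p = 0.00465), with 2.08 in tumor-free mice when osteoblast replicate 1 was left out. In tumor-bearing mice Hes1 did pass in 4 of 13 settings. These were array weights (adjusted p = 0.00873) and the mean of 11 immediate early genes as a covariate (0.0205). The others were only the groups compared (0.0318) and tumor-free replicate 1 of both cell types left out (0.0417).

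Hey1, a target with roles in arterial endothelium and in bone, varied widely within groups. It read 7.91, 7.43 and 8.80 in endothelial cells from tumor-bearing mice, 7.69, 6.98 and 6.83 in those of tumor-free mice, 7.61, 7.0 and 6.37 in osteoblasts of tumor-bearing mice and 6.29, 8.37 and 6.83 in those of tumor-free mice. Its highest and lowest osteoblast arrays were both from tumor-free mice. The cell types differed by 1.06 ± 0.54 in tumor-bearing mice and 0.00 ± 0.54 in tumor-free mice (limma adjusted p = 0.253 and 1.00). In tumor-bearing mice the difference passed with array weights (0.98, adjusted p = 0.0490) and with the hematopoietic mean as a covariate (1.54, adjusted p = 0.0409).

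Hey2 read 4.0, 4.28 and 4.32 in endothelial cells from tumor-bearing mice, 4.01, 3.55 and 3.80 in those of tumor-free mice, 4.75, 4.55 and 4.05 in osteoblasts of tumor-bearing mice and 3.86, 3.76 and 3.78 in those of tumor-free mice. The osteoblast groups did not overlap, at levels below the array medians of 5.21 to 5.41, and this difference was not tested.

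In osteoblasts, 1 of the 9 members tested was higher in tumor-bearing than in tumor-free mice and 0 were lower, against 4.01% and 0.571% of all genes. At an unadjusted p under 0.05 there were 2 higher and 0 lower, against 24.4% of all genes in either direction. The member was Jag1, whose mean level was 7.35 ± 0.52 in osteoblasts of tumor-bearing mice and 6.01 ± 0.64 in those of tumor-free mice (SD, n = 3 each), a 2.55-fold difference (1.35 ± 0.32 log2, SE, limma adjusted p = 0.0426). All 3 arrays of tumor-bearing osteoblasts were above all 3 of tumor-free osteoblasts.

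The Jag1 call lay close to the threshold and used a spread shared by all 4 groups. The Jag1 SD was 0.52 and 0.64 in tumor-bearing and tumor-free osteoblasts, and 0.27 and 0.04 in endothelial cells. With only the groups compared the adjusted p was 0.249, and with array weights per group it was 0.114. The call also ended without tumor-bearing osteoblast replicate 1 (1.12, adjusted p = 0.131) or replicate 2 (1.30, adjusted p = 0.140). Without any 1 endothelial array it ended as well, with the difference at 1.35 and adjusted p = 0.0574 to 0.0691. Leaving out tumor-free osteoblast replicate 1 gave 0.98 and kept the call, and leaving out tumor-free replicate 1 of both cell types gave 0.98 and ended it (adjusted p = 0.0557). Over all single arrays left out the difference was 0.98 to 1.63.

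**Figure D3:**
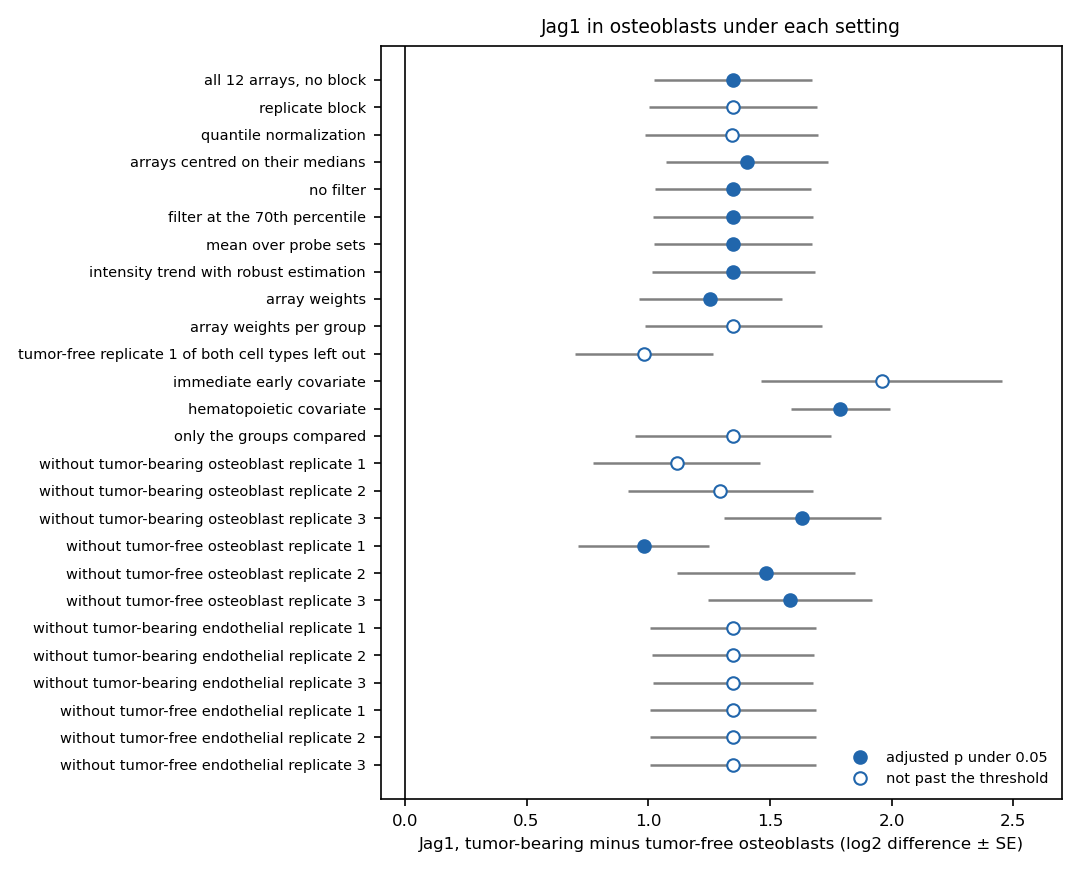
Tumor-bearing minus tumor-free difference of Jag1 in osteoblasts (log2, horizontal axis, bars ± SE) under each processing setting and with each array left out. Every estimate is above 0, and filled points mark those that passed the adjusted threshold.

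Markers of other cells and early response genes moved in the same comparison. The mean of 10 smooth muscle and pericyte markers was 7.89, 7.53 and 6.85 on the arrays of tumor-bearing osteoblasts and 6.57, 6.72 and 6.74 on those of tumor-free osteoblasts. Of the 10, 2 were higher and 1 was lower, against 4.01% and 0.571% of all genes, and the median difference was 0.60. Acta2, the actin of smooth muscle, was 6.75-fold higher (adjusted p = 0.0118). The lower gene was Kcnj8, with a mean of 5.67 in tumor-bearing and 7.03 in tumor-free osteoblasts. The 7 chondrocyte markers had a median difference of 2.02, and 1 of them was called higher. The mean of 11 immediate early genes, which are induced within minutes by stress and by cell dissociation, was 9.77, 9.88 and 9.76 in osteoblasts of tumor-bearing mice and 9.16, 8.63 and 7.99 in those of tumor-free mice. Of the 11, 4 were higher, against 4.01% of all genes. Between tumor-bearing and tumor-free endothelial cells, the median difference was 0.29 for the smooth muscle and pericyte markers and 0.57 for the immediate early genes. It was -0.27 for the chondrocyte markers, and 0 genes of these lists were called there, against 0.0241% of all genes. At an unadjusted p under 0.05 (limma), 5 of the 11 immediate early genes and 3 of the 10 smooth muscle and pericyte markers were higher there. That held for 0 of the 7 chondrocyte markers and for 6.93% of all genes in either direction. With the immediate early mean as a covariate the Jag1 difference in osteoblasts was 1.96 with an adjusted p of 0.240. Under that setting 0 of all genes passed in osteoblasts. With the hematopoietic mean as a covariate the Jag1 difference was 1.79 with an adjusted p of 0.00319. The part of smooth muscle, pericyte and chondrocyte RNA in the Jag1 difference was not tested, and in sorted bulk samples fewer cells of a type and less RNA per cell cannot be told apart.

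Hes1 was the other member past an unadjusted p of 0.05 in osteoblasts. Its difference between tumor-bearing and tumor-free osteoblasts was 0.90 ± 0.34 (limma adjusted p = 0.146), and the groups overlapped through tumor-free replicate 1. Without that array the difference was 1.26 (adjusted p = 0.0240). With the immediate early mean as a covariate the Hes1 difference was -0.26 (adjusted p = 0.802), a setting under which 0 of all genes passed in osteoblasts. Jag2 arrays of tumor-bearing osteoblasts lay below all those of tumor-free osteoblasts, with a difference of -0.35 ± 0.18 that did not pass (adjusted p = 0.263). Groups without overlap made up 12.3% of all genes in the higher and another 12.3% in the lower direction of this comparison. With the hematopoietic mean as a covariate, Notch2 was also called in osteoblasts (0.72, adjusted p = 0.0295). The remaining 6 members tested, the 4 receptors, Dll4 and Hey1, differed by -0.28 to 0.36 (adjusted p of 0.412 to 0.875).

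In endothelial cells, 0 of the 9 members passed between tumor-bearing and tumor-free mice (limma), and 1 had an unadjusted p under 0.05. Of all genes, 0.0241% passed and 6.93% had an unadjusted p under 0.05. That member was Dll4, whose mean was 7.82 ± 0.36 in endothelial cells from tumor-bearing mice and 7.18 ± 0.45 in those of tumor-free mice (SD, n = 3 each). The difference was 0.64 ± 0.27 with a 95% interval of 0.04 to 1.24 (limma adjusted p = 0.685), and tumor-free replicate 1, at 7.70, lay within the range of the tumor-bearing arrays. Hey1 had the largest estimate of the members, 0.88 ± 0.54, with an interval of -0.30 to 2.06, and Notch3 and Notch4 differed by 0.32 and -0.34 (adjusted p = 0.920 and 0.773). Notch1, Notch2, Jag1, Jag2 and Hes1 differed by -0.15 to 0.07, with intervals of -0.44 to 0.34 for Notch1, -0.73 to 0.43 for Notch2, -0.75 to 0.68 for Jag1, -0.34 to 0.47 for Jag2 and -0.81 to 0.71 for Hes1. The immediate early mean of tumor-free endothelial replicate 1 was 9.68, within reach of the 9.65 to 9.71 of the tumor-bearing arrays, against 8.80 and 8.66 on the other tumor-free endothelial arrays. With this mean as a covariate the adjusted p of Dll4 was 0.907, a setting under which 0 of all genes passed in endothelial cells. Over the 13 settings, this covariate among them, the Dll4 difference was 0.56 to 0.90.

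**Figure D4:**
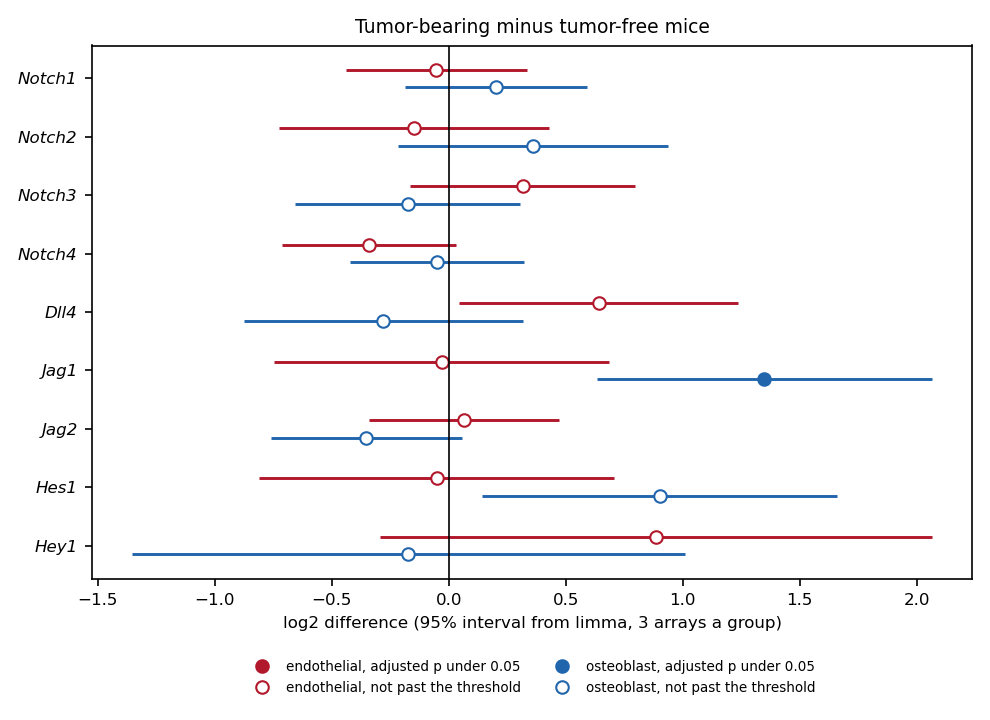
Tumor-bearing minus tumor-free differences (log2, horizontal axis, with 95% intervals) of the 9 members tested, in endothelial cells and in osteoblasts. Jag1 in osteoblasts is the one difference that passed.

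Testing the tumor effects against each other, 0 of the 9 members passed (limma, 0.209% of all genes passed), with 1 higher and 1 lower at an unadjusted p under 0.05, against 16% of all genes in either direction. The Jag1 effect was 1.35 in osteoblasts and -0.03 in endothelial cells, a difference of 1.38 ± 0.46 (adjusted p = 0.204). With the hematopoietic mean as a covariate, the Jag1 difference of effects was 1.75 and passed (adjusted p = 0.0278). The Dll4 effect was -0.28 in osteoblasts and 0.64 in endothelial cells, a difference of -0.92 ± 0.38 (adjusted p = 0.279).

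The 53 other genes of the pathway analysed were grouped by role, and 48 of them were tested. In tumor-bearing mice 6 of the 48 were higher and 1 was lower in endothelial cells than in osteoblasts, and in tumor-free mice 12 were higher and 5 were lower, against the 8.13%, 6.79%, 18.2% and 12.7% of all genes. Between tumor-bearing and tumor-free mice, 2 of the 48 were higher and 0 were lower in osteoblasts, against 4.01% and 0.571% of all genes (limma). In endothelial cells 0 passed, against 0.0241% of all genes, and 1 had an unadjusted p under 0.05, against 6.93% of all genes.

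Of the other ligands, Dll1 was higher in endothelial cells. It had 6.62, 6.58 and 6.12 in endothelial cells from tumor-bearing mice against 5.39, 5.24 and 5.57 in osteoblasts, and 7.25, 6.45 and 6.24 against 5.43, 5.19 and 5.38 in tumor-free mice. The folds were 2.05 (limma adjusted p = 0.0149) and 2.48 (adjusted p = 0.00343), and the call in tumor-bearing mice ended without tumor-bearing osteoblast replicate 2 or endothelial replicate 1 or 2 (adjusted p = 0.0640, 0.0644 and 0.0579). Dlk1, a ligand-like protein without the domain that activates Notch, was 1.65-fold lower in endothelial cells of tumor-free mice (adjusted p = 0.00613). Of 5 genes for ligand endocytosis, 1 was called higher in endothelial cells of tumor-free mice, against 18.2% of all genes. This was Mib1, the ligase that lets ligands pull on receptors, at 1.98-fold (adjusted p = 0.00733).

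Of the 6 glycosyltransferase genes that modify Notch, 2 were higher in endothelial cells in tumor-bearing mice and 3 in tumor-free mice, against 8.13% and 18.2% of all genes. Eogt, which adds N-acetylglucosamine to Notch repeats, had 8.46, 8.52 and 8.86 in endothelial cells from tumor-bearing mice against 7.12, 6.96 and 6.26 in osteoblasts, and 9.05, 8.51 and 8.62 against 6.19, 7.06 and 5.86 in tumor-free mice. It did not overlap between cell types, at 3.56-fold (limma adjusted p = 0.00244) and 5.12-fold (adjusted p = 0.000450). Mfng, a Fringe enzyme that tunes the choice between Delta and Jagged ligands, was 2.58-fold higher in tumor-bearing mice and 2.14-fold higher in tumor-free mice (adjusted p = 0.00162 and 0.00505). Poglut1, a glucosyltransferase, differed by 0.09 in tumor-bearing mice (adjusted p = 0.932) and was 3.14-fold higher in endothelial cells of tumor-free mice (adjusted p = 0.00827). The Poglut1 call ended without tumor-free replicate 1 of endothelial cells and of osteoblasts together (2.08-fold, adjusted p = 0.0575) and with only the groups compared (adjusted p = 0.0577). Of 9 protease genes measured, 2 were called higher in endothelial cells of tumor-free mice, against 18.2% of all genes. Adam10, which makes the first activating cut, was 6.56-fold higher (adjusted p = 0.00217) and Adam17 1.80-fold (adjusted p = 0.0394). The Adam10 excess was 4.31-fold when the same 2 tumor-free arrays were left out and 11.7-fold with the hematopoietic covariate, and passed in both. The Adam17 call ended in 7 of 12 fits with an array left out, with adjusted p up to 0.119 (without tumor-free endothelial replicate 3), and in 7 of 13 settings. Of 10 genes of the nuclear complex, 2 were called higher in endothelial cells of tumor-free mice, against 18.2% of all genes. These were the acetyltransferases Ep300 and Kat2b, 2.00-fold and 1.72-fold higher (adjusted p = 0.0114 and 0.0406). The Kat2b call ended in 7 of 12 fits with an array left out, with adjusted p up to 0.119 (without tumor-free endothelial replicate 2). It also ended in 5 of 12 settings, with adjusted p up to 0.157. The Ep300 call ended with quantile normalization (adjusted p = 0.0511), with the hematopoietic covariate (0.0594) and with only the groups compared (0.0683).

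**Figure D5:**
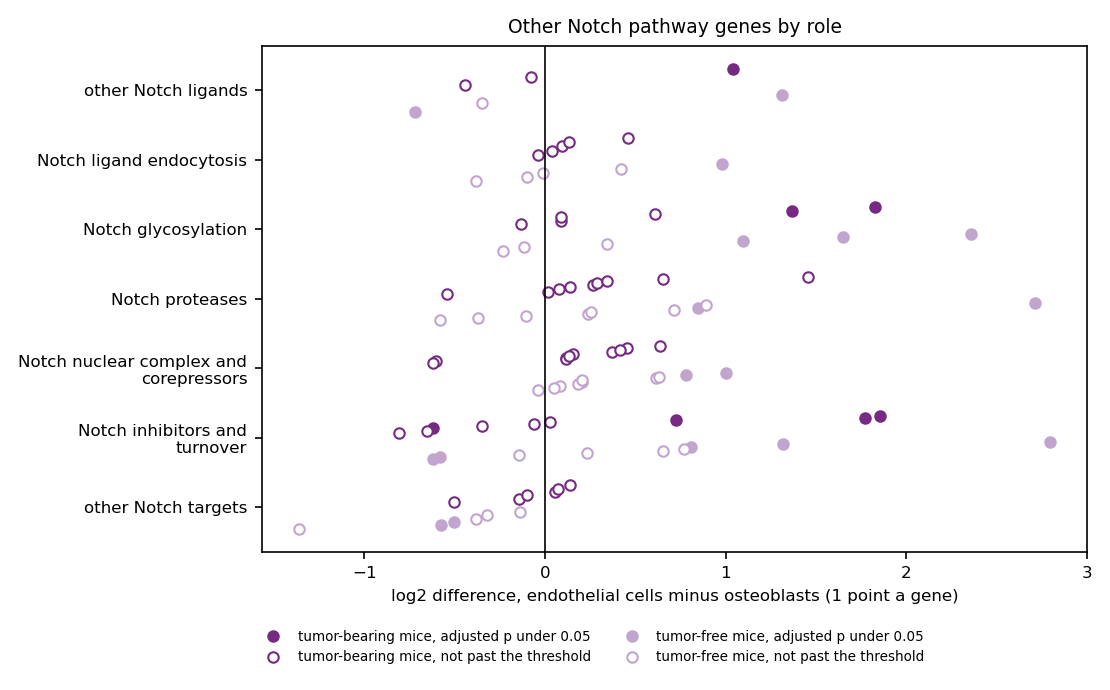
Endothelial minus osteoblast difference of each of the 48 other pathway genes tested (log2, horizontal axis), by role (vertical axis), in tumor-bearing and tumor-free mice, with filled points past the threshold. The filled points farthest right, up to 2.80, are genes of glycosylation, proteases and inhibitors.

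Of 9 genes for Notch inhibition and turnover, 3 were higher and 1 was lower in endothelial cells from tumor-bearing mice, and 3 were higher and 2 were lower in those of tumor-free mice. The shares of all genes were 8.13%, 6.79%, 18.2% and 12.7%. Numb, an adaptor that antagonizes Notch, had 9.71, 9.74 and 10.07 in endothelial cells from tumor-bearing mice against 8.17, 8.47 and 7.56 in osteoblasts, and 9.80, 10.10 and 9.99 against 7.58, 6.93 and 6.98 in tumor-free mice. The fold was 3.42 in tumor-bearing mice (limma adjusted p = 0.000610) and 6.95 in tumor-free mice (adjusted p = 2.3e-05). Nrarp, a feedback inhibitor that is itself a Notch target, was 3.61-fold higher in tumor-bearing mice and 2.50-fold higher in tumor-free mice (adjusted p = 0.000420 and 0.00323). Its osteoblast means, 4.53 in tumor-bearing and 5.13 in tumor-free mice, were below the array medians of 5.21 to 5.41. Nrarp exceeded the median of all probe sets on 7 of the 12 arrays. Lnx1, a ligase that acts on Numb, was 1.66-fold higher in endothelial cells from tumor-bearing mice (adjusted p = 0.00884) and differed by -0.14 in tumor-free mice. The other gene higher in tumor-free mice was Dtx3 (0.81, adjusted p = 0.0409), which differed by -0.81 in tumor-bearing mice (adjusted p = 0.0670). Its call in tumor-free mice held in 8 of 13 settings and in 5 of 12 fits with an array left out. The lower genes were Numbl, a relative of Numb, in both kinds of mice (-0.62 in each) and Dtx4 in tumor-free mice (-0.58), all 3 results named after their values were seen. Of 6 other targets, 2 were called lower in endothelial cells of tumor-free mice, against 12.7% of all genes. Hes7 was 1.42-fold and Ptcra 1.49-fold lower (adjusted p = 0.0251 and 0.0337). Either call ended in 4 of 12 fits with an array left out, among them without tumor-free osteoblast replicate 1 (adjusted p = 0.0545 for Hes7 and 0.0879 for Ptcra), and in 5 settings for Hes7 and 7 for Ptcra.

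The genes past the threshold in osteoblasts of tumor-bearing against tumor-free mice were Rbpj and Dtx3. Rbpj, the DNA-binding partner of the Notch intracellular domain, had 8.85, 8.95 and 8.52 in osteoblasts of tumor-bearing mice against 7.70, 8.27 and 7.18 in those of tumor-free mice, with no overlap (1.06 ± 0.25, 2.09-fold, limma adjusted p = 0.0419). Its other probe set differed by -0.25, and with the mean over probe sets the difference was 0.41 (adjusted p = 0.206). The Rbpj call held in 3 of 12 fits with an array left out and had an adjusted p of up to 0.145 in the others (without tumor-bearing osteoblast replicate 2), and with the immediate early mean as a covariate it was 0.45 (adjusted p = 0.653). Dtx3, of the Deltex family of Notch-associated ligases, had 6.49, 7.03 and 6.64 in tumor-bearing mice against 5.58, 5.05 and 5.11 in tumor-free mice (1.48 ± 0.26, 2.78-fold, adjusted p = 0.0136). The Dtx3 call ended without tumor-bearing osteoblast replicate 2 (adjusted p = 0.0683), with array weights per group (0.0893) and with only the groups compared (0.104). With the immediate early mean as a covariate the difference was 1.31 with an adjusted p of 0.316, a setting under which 0 of all genes passed.

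For each member called between cell types, the genes closest to it over the 12 arrays were found by the root mean square difference of log2 levels centred on each gene's mean. For Notch1 these were Ackr1 (0.22) and Elk3 (0.24), for Notch2 Satb1 (0.22) and Cgref1 (0.25), and for Notch4 Adam15 and Mvb12b (both 0.16). For Dll4 they were Mfsd6 and Fbln2 (both 0.28), for Jag1 Tulp4 (0.26) and Kdm4c (0.28), for Jag2 Arsa (0.14) and Hs3st1 (0.17), and for Hes1 Sptlc2 and Nckap1 (both 0.30).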

How the data were processed

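Labelled cDNA made from amplified total RNA of sorted cells was hybridised to 12 arrays. The values are the authors' deposited log2 expression values of 34760 probe sets. The tool was affy, per the submitters' processing notes, and its version, background correction and normalization were not given in the sources used here. Array medians were 5.21 to 5.41 and no pair of arrays was identical. Symbols came from the platform annotation: 21640 probe sets had 1 symbol, 1321 several and 11799 were not listed. For a gene with several probe sets (954 of 19937) the one with the highest mean over 12 arrays was used, and those of some pathway genes, namely Rbpj, Neurl1b, Maml2, Fbxw7 and Psenen, disagreed in sign in at least 1 comparison.

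Genes that on 3 or more arrays exceeded the median probe set (12430, 62.3%) were tested with limma 3.58.1 in R 4.3.3: 1 mean per group, 1 shared spread, Benjamini-Hochberg adjustment over all 12430 and a threshold of 0.05. The code was tested on simulated data. All 10 members were named, with the up to 3 smallest p-values per role list in tumor and in cell type comparisons and the 2 genes most like each called member. Runx2, Bglap and Spp1 were not analysed here. Members and lists were chosen with earlier results of these data known. Same-numbered arrays did not deviate together (correlations of -0.26 to 0.11), so no replicate block was used. The number of arrays limits precision. Alternatives were other normalizations, filters, probe set rules, variance models, array weights, covariates, samples and single arrays left out.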

Additional observations from a re-analysis of the deposited data

How the results depend on the processing

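No result turned its direction while called. The cell type calls of Notch1, Notch2, Notch4 and Dll4, and those of Jag1 and Hes1 in tumor-free mice, held in all 13 settings and with each of the 12 arrays left out. For the tumor comparison in osteoblasts, 1 member passed. That count was 0 with the replicate number as a block (replicate block; the Jag1 adjusted p was 0.0720), with quantile normalization, with array weights per group, with the immediate early covariate and with only the groups compared. It was 2 with the hematopoietic covariate and 0 to 2 with single arrays left out. For the other pathway genes in osteoblasts the count of 2 was 1 with quantile normalization, the mean over probe sets or the intensity trend, 0 with array weights per group, the immediate early covariate or only the groups compared, 5 with the hematopoietic covariate, and 0 to 4 with arrays left out. In endothelial cells the other pathway genes gave 0, and 1 with either kind of array weights. Between cell types they gave 17 in tumor-free mice, 11 with array weights per group, 9 with only the groups compared and 10 to 18 with arrays left out, and in tumor-bearing mice 7, 15 with array weights, 11 with the hematopoietic covariate and 5 to 9 with arrays left out. For the difference of tumor effects, members gave 0, and 1 (Jag1) with the hematopoietic covariate. The other pathway genes gave 0, 1 with array weights or with tumor-free replicate 1 dropped in endothelial cells and osteoblasts alike, and 0 to 1 with arrays left out. The causes were not tested. Over all genes, 570 passed in osteoblasts, and 0 with the immediate early covariate or only the groups compared, 130 with array weights per group, 349 with the block, 955 with no filter, 890 with the hematopoietic covariate and 1421 when tumor-free replicate 1 was dropped in endothelial cells and osteoblasts together. In endothelial cells 3 passed, and 0 to 449 over the settings. Between cell types, 3850 passed in tumor-free mice (1911 with only the groups compared, 2529 with array weights per group, 6564 with no filter) and 1854 in tumor-bearing mice (3733 with array weights). For the difference of effects 26 passed, and 0 to 378 over the settings. Centring arrays on their medians moved the median difference of all genes in tumor-free mice to 0.18, against 0.03, and the share of calls higher in endothelial cells to 78.4%, against 58.9%. Quantile normalization took the share of higher calls in osteoblasts to 66.7%, against 87.5%. Settings for single pathway genes were added after the data were seen.

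The precision is that of 3 arrays a group, and of the members, Jag2 and Hey2 lay near or below the array medians. The normalization by the authors is unknown beyond the tool.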
